A study of Rattus norvegicus with 16 samples.

Results

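Mucin-type glycosyltransferases build the O-linked sugar chains of mucins and other cell surface proteins, and a short set of enzymes makes the sialic acids that cap many of these chains. The genes described here were chosen by name. They are all rat genes of the St3gal, St6gal, St6galnac, St8sia, Fut, Galnt, B3gnt, B3galt, B4galt, B4galnt and Gcnt families that carry a family number, together with Cmahp, Cmas, Gne and Nans. Of 87 such symbols in the reference gene table, 67 were matched to a probe and 20 were not, and these 67 were drawn from 15159 genes that could be named on the array. Where a gene had several probes, which was the case for 11 of the 67, the probe with the highest mean signal over all 16 arrays stood for it. The set was picked with results of these data already known, so the members are described and nothing particular to them is claimed from their choice.

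RNA from the normal distal colon of 16 male rats was hybridized to single-color Agilent arrays, 1 rat per array and 4 rats per group. All rats were (ACIxF344)F1 animals, a cross of the ACI and F344 strains, and all were 97 days old at dissection. The Pirc/+ rats carried 1 mutant copy of Apc, the tumor suppressor gene whose loss starts most colonic adenomas, and the other rats were wild type for Apc. In each genotype 4 rats had received 4% dextran sodium sulfate (DSS), a sulfated polysaccharide that injures the colonic lining and is used to model colitis, in the drinking water from day 40 to 47 and again from day 54 to 61. The DSS-treated rats were therefore sampled 36 days after the last DSS, and the untreated rats of both genotypes served as controls. The Pirc allele is present in every cell of the rat, and the tissue was scraped from the inner surface of the colon away from visible tumors, so the epithelium and whatever other cells came with it contributed RNA. The design asks how DSS treatment and the Pirc allele each alter transcript levels in tissue that has not become a tumor.

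Synthesis of a mucin O-glycan begins when a polypeptide GalNAc-transferase (Galnt) attaches N-acetylgalactosamine to serine or threonine. Enzymes that include core 1 synthase and branching enzymes (Gcnt) then form the cores. Most B3gnt enzymes, together with B3galt and B4galt galactosyltransferases, lengthen the chains. Fucosyltransferases (Fut) and sialyltransferases (St3gal, St6galnac, St6gal and St8sia) end them. In the colon these chains make up most of the mass of the mucins that goblet cells secrete. Those mucins form the mucus gel that keeps bacteria from the epithelium. The same sugars are read by selectins, galectins and Siglecs on immune cells. Several enzymes of these families act on glycolipids or on N-linked chains rather than on mucins.

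The upstream sequences of 5 members that passed with DSS over both genotypes are shown here. Of these, 3 were higher in treated rats (B4galt1, St3gal4 and St3gal5) and 2 were lower (Cmahp and St3gal6). They were picked without a set rule, and B4galt6 and Gcnt3, with log2 changes of 2.27 and 1.51, are not shown. 56 of the 67 members had an entry in the RefSeq promoter table (rat assembly GRCr8), and the 250 bases before the listed start are given in the direction of transcription. Capitals mark matches, on either strand, to 6 motifs that were searched for: the GC box GGGCGG, the AP-1 site TGANTCA, the STAT site TTCNNNGAA, the cAMP response element TGACGTCA, the TATA box TATAAA and the CDX site TTTATNG. Cmahp, which encodes the hydroxylase that turns CMP-N-acetylneuraminic acid into CMP-N-glycolylneuraminic acid, lies at chr17:41067931-41068180 on the minus strand, with 1 match, a TATA box that begins 128 bases before the start.
Cmahp: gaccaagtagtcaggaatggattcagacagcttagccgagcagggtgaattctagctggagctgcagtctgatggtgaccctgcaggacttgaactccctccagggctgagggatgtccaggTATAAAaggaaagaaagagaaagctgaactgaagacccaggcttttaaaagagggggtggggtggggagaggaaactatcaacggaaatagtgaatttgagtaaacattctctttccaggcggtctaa
B4galt1, a galactosyltransferase of the Golgi, lies at chr5:60778446-60778695 on the minus strand, with 6 GC boxes and 1 STAT match.
B4galt1: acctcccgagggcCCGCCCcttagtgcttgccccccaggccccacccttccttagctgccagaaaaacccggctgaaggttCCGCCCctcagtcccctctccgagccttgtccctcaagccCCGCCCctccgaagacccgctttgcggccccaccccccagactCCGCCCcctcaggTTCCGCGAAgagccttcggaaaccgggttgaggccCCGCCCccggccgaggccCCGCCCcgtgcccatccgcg
St3gal4, which also sialylates lactosamine chains, lies at chr8:41723159-41723408 on the minus strand at 1 of 3 listed starts, and none of the 6 motifs is in its window.
St3gal4: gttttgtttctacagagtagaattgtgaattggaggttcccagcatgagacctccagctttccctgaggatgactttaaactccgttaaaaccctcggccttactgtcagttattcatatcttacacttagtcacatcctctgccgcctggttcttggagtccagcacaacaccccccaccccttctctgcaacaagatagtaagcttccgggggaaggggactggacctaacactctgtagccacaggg
St3gal5, the GM3 ganglioside synthase, lies at chr4:105692590-105692839 on the plus strand at the more upstream of 2 listed starts, with 2 GC boxes.
St3gal5: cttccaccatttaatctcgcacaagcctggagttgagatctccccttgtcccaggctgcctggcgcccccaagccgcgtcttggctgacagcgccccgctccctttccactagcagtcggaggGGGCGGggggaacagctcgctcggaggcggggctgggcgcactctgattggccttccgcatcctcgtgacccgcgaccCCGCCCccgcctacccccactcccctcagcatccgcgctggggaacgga
St3gal6, which sialylates galactose at the ends of lactosamine chains, lies at chr11:55546538-55546787 on the plus strand, and none of the 6 motifs is in its window.
St3gal6: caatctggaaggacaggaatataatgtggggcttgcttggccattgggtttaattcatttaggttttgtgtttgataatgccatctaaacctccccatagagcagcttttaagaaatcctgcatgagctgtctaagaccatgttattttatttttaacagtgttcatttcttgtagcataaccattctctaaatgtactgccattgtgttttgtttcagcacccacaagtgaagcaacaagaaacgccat
The GC content was 48.8% for Cmahp, 72% for B4galt1, 49.6% for St3gal4, 68.4% for St3gal5 and 38.4% for St3gal6. Over all 33469 windows of this length, 30.5% held a GC box, 12.9% a TATA box, 10.1% a CDX site, 7.67% a STAT site, 6.34% an AP-1 site and 1.59% a cAMP response element. A match is a run of letters only, and no factor binding was measured.

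The arrays differed in brightness. The 75th percentile of the signal was 1063 to 2194 in untreated Pirc rats and 875 to 1829 in DSS-treated Pirc rats. It was 1248 to 1433 in untreated wild type rats and 1086 to 1250 in DSS-treated wild type rats. Between 71.1% and 80.3% of spots on an array were well above background, no spot was saturated, and the correlation between arrays over all probes was 0.959 to 0.993. Levels are given as the log2 signal minus the log2 of that array's 75th percentile, so a value of 0 equals that percentile. Of the 67 members, 50 were well above background on all 16 arrays, 14 on some and 3, namely Fut10, Galnt13 and St8sia1, on none. The arrays lay on 2 slides, each with 2 rats of every group. The 4 groups were hybridized in 4 different columns, and an effect of the column cannot be told apart from that of the group. All 13 measured markers of colonic epithelium were well above background on every array, which does not show that other tissue was absent.

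DSS treatment was associated with changes in both directions among these genes. Over both genotypes, 23 of 67 members passed an adjusted p of 0.05 (limma, adjusted over all 30367 probes), 10 of them higher and 13 lower in the treated rats. Of all probes, 17.2% passed the same threshold, 10.2% as higher and 6.99% as lower, and 19.9% of the probes that were well above background on every array did so, against 18 of the 50 members of that kind. With a factor of 2 as well, 8 members passed, compared with 5.99% of all probes. The median change of the 67 members was -0.02, and that of all probes was 0.06. Their median size of change was 0.32, compared with 0.20 over all probes. With each array's median in place of its 75th percentile as the scale, 27 members passed and 9 of them (33.3%) were higher, against 43.5% in the main scaling. That scaling moved the median change of all probes by -0.15, so changes are read relative to it. Over the 7 comparisons described here, 84 results of members passed, and all 84 had the same sign on both slides. These results had been picked by a fit to both slides together, so the shared sign is not an independent check.

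**Figure D1:**
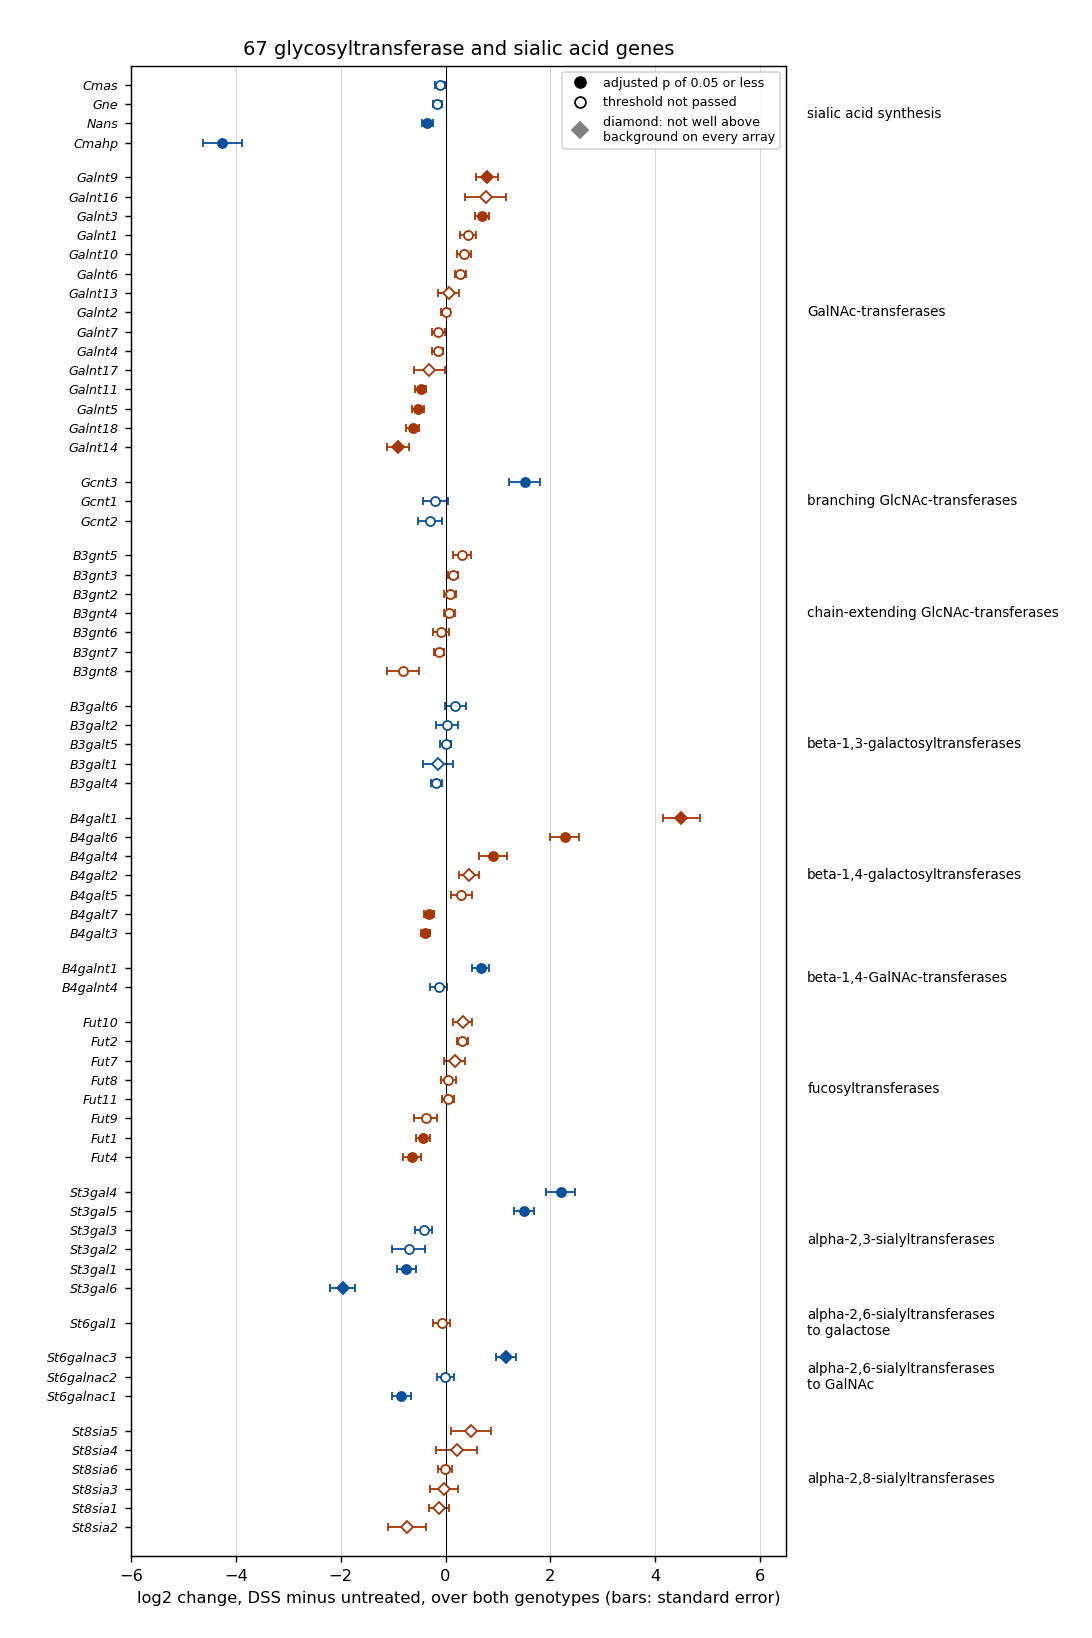
Log2 change with DSS (DSS minus untreated, over both genotypes, x axis) for all 67 members grouped by enzyme family, with standard errors. Filled symbols passed an adjusted p of 0.05, open ones did not, and diamonds mark probes not well above background on every array. B4galt1 (4.50) and Cmahp (-4.26) lie at the ends, and the alpha-2,3-sialyltransferases spread from -1.96 to 2.20.

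Markers of other cell types moved with DSS in the same arrays, and their part in the results on the glycosyltransferases was not tested. In bulk tissue, fewer cells of a type and less RNA per cell cannot be told apart. Over both genotypes, 10 of 14 measured squamous and urothelial markers were enhanced and none was diminished, with Ivl and Upk2 not well above background on any array. The mean level of that list was between -5.50 and -5.12 in untreated wild type rats, -5.70 and -5.04 in untreated Pirc rats, -5.29 and -1.38 in DSS-treated wild type rats, and -2.07 and -0.21 in DSS-treated Pirc rats. Among leukocyte markers 7 of 9 were enhanced, with list means of -4.42 to -3.80, -4.07 to -3.91, -3.60 to -2.28 and -2.89 to -2.39 in the same order of groups. All 8 fibroblast markers were enhanced, with list means of -4.56 to -4.04, -4.55 to -3.82, -3.66 to -1.27 and -2.56 to -1.30. The lists of B and plasma cells (5 of 5), macrophages (5 of 8), neutrophils (3 of 6), T and natural killer cells (3 of 9) and endothelium (3 of 5) held no diminished member, while smooth muscle had 1 of 7 in each direction. The smooth muscle list mean was -2.06 in untreated wild type rat 25 and -1.45 in treated wild type rat 26, compared with -5.2 to -2.73 in the other 14 rats. Among goblet cell markers 3 of 11 were diminished (Clca1, Klk1 and Rep15), with list means of 2.85 to 3.60, 3.03 to 3.19, 2.61 to 3.37 and 1.56 to 2.84, and in the colonic epithelium list 1 of 13, the chloride exchanger Slc26a3, was diminished.

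Of the 4 sialic acid genes, 2 fell with DSS over both genotypes and none rose, compared with 6.99% of all probes that were lower and 10.2% that were higher. Gne begins the pathway by making N-acetylmannosamine, Nans condenses it to sialic acid, Cmas activates sialic acid to CMP-sialic acid, and Cmahp encodes the hydroxylase named above. Cmahp was at 1.76, 2.19, 1.94 and 2.05 in untreated wild type rats and at -3.0, -2.73, -0.56 and -0.87 in DSS-treated wild type rats, and at 1.57, 1.75, 1.07 and 1.76 in untreated Pirc rats and -3.95, -2.06, -4.11 and -2.69 in DSS-treated Pirc rats. No untreated rat of either genotype overlapped with a DSS-treated rat. Over both genotypes the change was -4.26 ± 0.38 (SE, adjusted p = 1.36e-05), a 19.1-fold lower level. That fall had been seen in these data before the set was chosen, so it is given as a description. Within the slides it was -4.75 and -3.76. In DSS-treated wild type rats the 2 rats of the first slide, at -3.00 and -2.73, were lower than the 2 of the second, at -0.56 and -0.87. Nans fell slightly (change -0.34 ± 0.11, adjusted p = 0.0348), a call that was lost when any of 10 of the 16 rats was left out (adjusted p up to 0.0764). Gne and Cmas did not pass, with changes of -0.16 ± 0.08 (adjusted p = 0.253) and -0.11 ± 0.10 (adjusted p = 0.539), although Gne passed when the arrays were scaled to their medians (adjusted p = 0.0156).

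The largest enhancement of any member was that of B4galt1. The 7 beta-1,4-galactosyltransferases add galactose to N-acetylglucosamine or glucose in N-linked, O-linked and lipid-linked chains, and B4galt7 starts the linker of proteoglycans on xylose. B4galt1 was at -6.3, -7.66, -6.92 and -8.41 in untreated wild type rats and at -2.11, -2.75, -4.17 and -4.16 in DSS-treated wild type rats, and at -7.01, -6.19, -6.75 and -5.74 in untreated Pirc rats and -1.31, -1.41, -1.14 and -1.94 in DSS-treated Pirc rats. All DSS-treated rats lay above all untreated ones of both genotypes. The change over both genotypes was 4.5 ± 0.35 (SE, adjusted p = 7.18e-06), or 22.6-fold. In untreated wild type rats the probe was well above background on only 2 of 4 arrays, and the size of the change depended on how background was handled: with background corrected by normexp it was 2.40 (adjusted p = 2.79e-06), still enhanced.

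B4galt6 was at -2.66, -3.58, -3.47 and -4.14 in untreated wild type rats and at -0.13, -0.66, -1.37 and -2.08 in DSS-treated wild type rats, and at -4.17, -3.47, -3.52 and -3.24 in untreated Pirc rats and -1.19, -1.23, -2.0 and -1.39 in DSS-treated Pirc rats. B4galt6 makes lactosylceramide, the precursor of most gangliosides, and again no treated rat overlapped with an untreated one. Its change was 2.27 ± 0.27 (SE, adjusted p = 7.3e-05), or 4.83-fold, and within the slides it was 2.66 and 1.88. B4galt4 also rose (0.90 ± 0.27 SE, adjusted p = 0.0305), though the groups overlapped and leaving out any of 10 of the 16 rats raised its adjusted p above 0.05, to as much as 0.0681. B4galt3 (-0.38 ± 0.09 SE, adjusted p = 0.00963) and B4galt7 (-0.31 ± 0.09 SE, adjusted p = 0.0337) fell by small amounts, and the B4galt7 call was lost without any of 7 rats (adjusted p up to 0.0732). B4galt2, at 0.45, and B4galt5, at 0.30, did not pass. Of the 7 genes of this family 3 rose and 2 fell, compared with 10.2% and 6.99% of all probes.

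**Figure D2:**
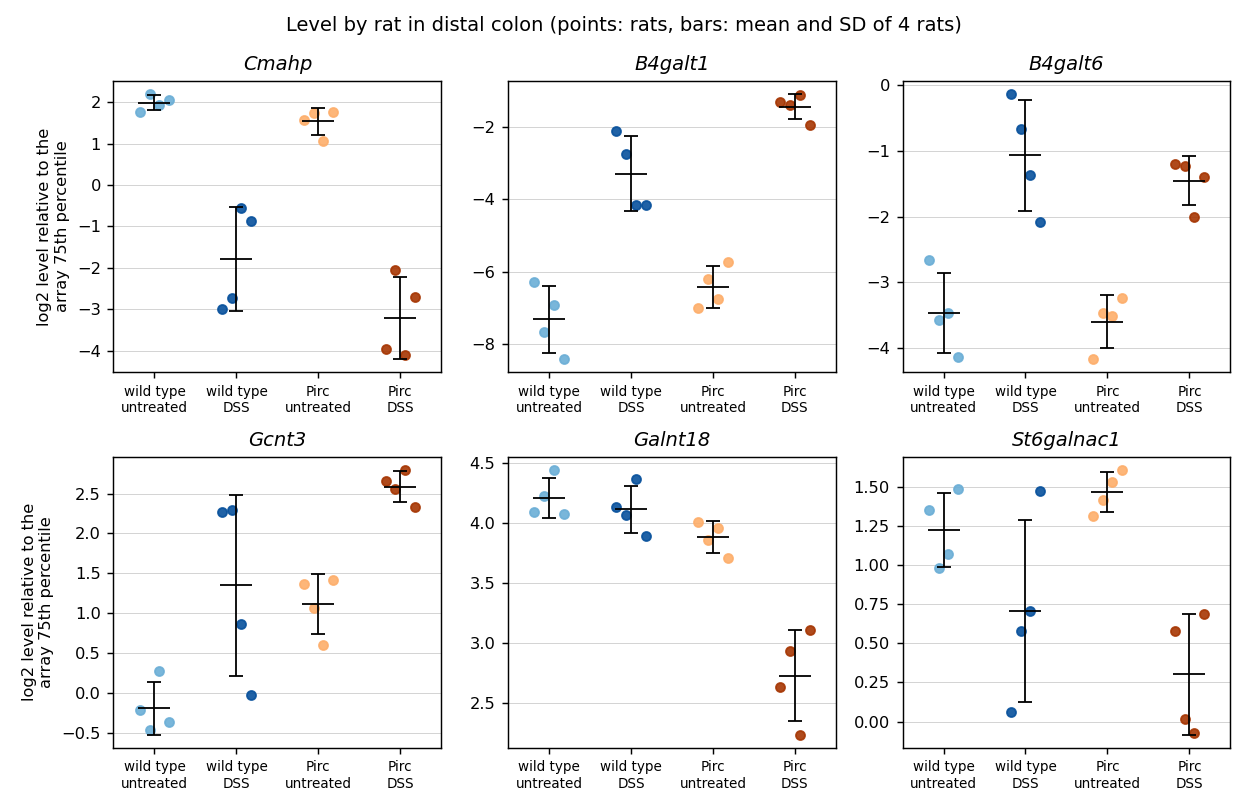
Level in every rat (points) with the mean and SD of each group of 4 (bars) for 6 members, as log2 signal relative to the array's 75th percentile (y axis, a separate scale in each panel). Cmahp, B4galt1 and B4galt6 separate all treated from all untreated rats. Galnt18 is low only in DSS-treated Pirc rats, with all 4 between 2.23 and 3.1, and Gcnt3 ranges from -0.03 to 2.29 among DSS-treated wild type rats.

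The 6 alpha-2,3-sialyltransferases split. These enzymes cap galactose, St3gal1 and St3gal2 mainly on core 1 O-glycans and gangliosides, St3gal3, St3gal4 and St3gal6 on lactosamine chains, including those that become sialyl Lewis ligands of selectins, and St3gal5 on lactosylceramide. Over both genotypes St3gal4 and St3gal5 rose, St3gal1 and St3gal6 fell, and St3gal2 and St3gal3 did not pass. Of all probes, 10.2% rose and 6.99% fell in that comparison. St3gal4 was at 0.04, -0.39, 0.09 and -0.32 in untreated wild type rats and at 2.5, 1.56, 1.39 and 0.63 in DSS-treated wild type rats, and at 0.01, -0.49, -0.32 and 1.35 in untreated Pirc rats and 2.65, 2.86, 3.18 and 2.8 in DSS-treated Pirc rats. Every DSS-treated wild type rat was above every untreated wild type rat, and every DSS-treated Pirc rat was above every untreated Pirc rat, but 1 untreated Pirc rat, at 1.35, was above 1 treated wild type rat, at 0.63. St3gal4 changed by 2.2 ± 0.28 (SE, adjusted p = 9.48e-05), or 4.59-fold.

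St3gal5 was at -3.72, -3.87, -4.6 and -4.63 in untreated wild type rats and at -2.93, -3.48, -3.85 and -3.62 in DSS-treated wild type rats, and at -4.12, -4.08, -4.25 and -3.6 in untreated Pirc rats and -1.72, -1.19, -1.77 and -2.35 in DSS-treated Pirc rats. The 4 DSS-treated Pirc rats stood above all others, and treated wild type rats overlapped with untreated ones. The change of St3gal5 was 1.5 ± 0.20 (SE, adjusted p = 0.000141) over both genotypes, 2.26 ± 0.28 in Pirc rats (adjusted p = 0.000192) and 0.74 ± 0.28 in wild type rats (adjusted p = 0.181). The difference between these effects, 1.52 ± 0.40, did not pass (adjusted p = 0.217).

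St3gal6 was at -4.42, -3.1, -3.86 and -3.29 in untreated wild type rats and at -6.81, -6.78, -5.73 and -5.29 in DSS-treated wild type rats, and at -3.74, -3.57, -3.61 and -4.13 in untreated Pirc rats and -5.13, -5.1, -5.08 and -5.48 in DSS-treated Pirc rats. In each genotype, and across them, all treated rats were below all untreated ones. St3gal6 changed by -1.96 ± 0.24 (SE, adjusted p = 8.13e-05), a 3.89-fold lower level, but in DSS-treated wild type rats only 2 of 4 arrays had this probe well above background, and with normexp the change was -0.76 (adjusted p = 0.000466). St3gal1 also fell (-0.75 ± 0.19 SE, adjusted p = 0.012), a call that was lost with normexp (change -0.21, adjusted p = 0.362). The changes of St3gal2 and St3gal3 over both genotypes were -0.70 ± 0.31 (adjusted p = 0.154) and -0.42 ± 0.17 (adjusted p = 0.111). Both fell in Pirc rats alone, with changes of -1.75 ± 0.44 (adjusted p = 0.0159) and -0.92 ± 0.24 (adjusted p = 0.0186). The St3gal2 call in Pirc rats was lost without untreated rat 15 (adjusted p = 0.0506) or treated rat 20 (adjusted p = 0.059), and the St3gal3 call was lost with normexp (change -0.34, adjusted p = 0.235).

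**Figure D3:**
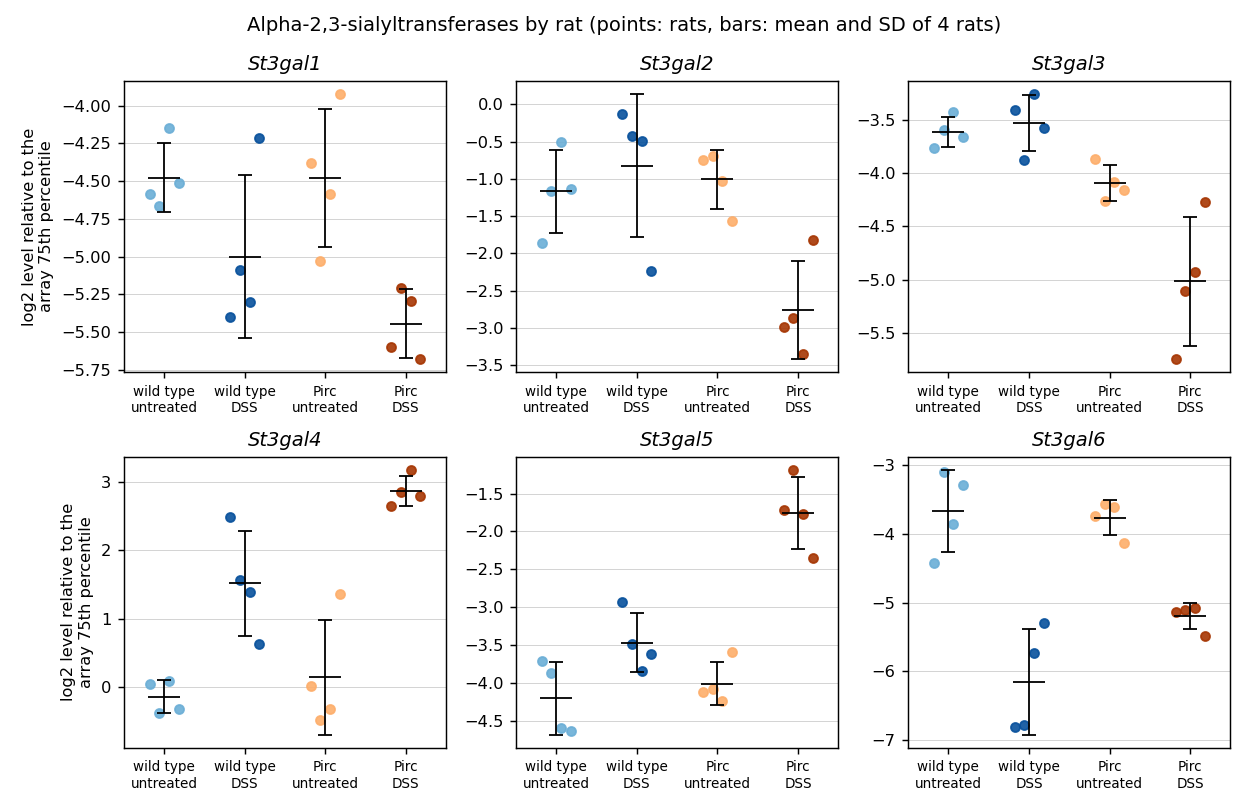
Level in every rat (points) with the mean and SD of each group of 4 (bars) for St3gal1 to St3gal6, as log2 signal relative to the array's 75th percentile (y axis, a separate scale in each panel). St3gal6 is lower in all treated rats, St3gal4 and St3gal5 are highest in DSS-treated Pirc rats, and the means of St3gal2 and St3gal3 are lowest there.

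Among the alpha-2,6-sialyltransferases, St6galnac1 fell. This enzyme adds sialic acid to the first GalNAc of mucins and so makes the sialyl-Tn antigen, and it is abundant in goblet cells. St6galnac1 was at 1.36, 0.98, 1.07 and 1.49 in untreated wild type rats and at 0.06, 0.58, 0.71 and 1.48 in DSS-treated wild type rats, and at 1.32, 1.42, 1.53 and 1.61 in untreated Pirc rats and 0.58, 0.02, -0.07 and 0.69 in DSS-treated Pirc rats. The treated and untreated Pirc rats did not overlap, whereas 1 treated wild type rat, at 1.48, was within the range of the untreated rats. The change was -0.84 ± 0.18 (SE, adjusted p = 0.00464) over both genotypes, -1.17 ± 0.26 in Pirc rats (adjusted p = 0.00692) and -0.52 ± 0.26 in wild type rats (adjusted p = 0.333). Goblet cell markers had fallen in the same arrays, 4 of 11 in Pirc rats and 1 of 11 in wild type rats, and their part in the fall of St6galnac1 was not tested. St6galnac2 did not pass (-0.01 ± 0.16). St6galnac3 passed as higher, but its probe was well above background on 5 of 16 arrays and the call was lost when values were raised to a common floor (adjusted p = 0.946), so no size is given. St6gal1, which sialylates N-linked chains, and the 6 St8sia genes, which make polysialic acid and the more complex gangliosides, did not pass. Of the St8sia genes, St8sia6 was well above background on all 16 arrays.

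Among the 15 GalNAc-transferases, which start O-glycans, 2 were higher, 4 were lower and 9 did not pass with DSS over both genotypes. Of all probes, 10.2% were higher and 6.99% lower in that comparison. Galnt18 is one of the less studied members of the family. Galnt18 was at 4.09, 4.23, 4.45 and 4.08 in untreated wild type rats and at 4.14, 4.07, 4.37 and 3.89 in DSS-treated wild type rats, and at 4.01, 3.86, 3.96 and 3.71 in untreated Pirc rats and 2.63, 2.93, 2.23 and 3.1 in DSS-treated Pirc rats. The 4 DSS-treated Pirc rats were below all other rats, while the other groups lay close together or overlapped. The change was -1.16 ± 0.18 (SE, adjusted p = 0.000638) in Pirc rats and -0.10 ± 0.18 (SE, adjusted p = 0.835) in wild type rats. The difference between the effects was -1.06 ± 0.25 (adjusted p = 0.15). That was the lowest adjusted p for the difference among the probes that stood for the members, but not past the threshold.

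Galnt14 was at -4.86, -4.63, -4.37 and -4.95 in untreated wild type rats and at -5.07, -5.14, -4.37 and -4.84 in DSS-treated wild type rats, and at -5.14, -5.2, -4.48 and -5.12 in untreated Pirc rats and -6.71, -7.51, -6.48 and -5.84 in DSS-treated Pirc rats. DSS-treated Pirc rats were again the lowest, with no overlap with the other groups. Galnt14 changed by -1.65 ± 0.30 (SE, adjusted p = 0.00194) in Pirc rats, but only 3 of the 4 DSS-treated Pirc arrays had it well above background, and with normexp the change was -0.31 (adjusted p = 0.274). Galnt3, which glycosylates mucins and the phosphate hormone Fgf23, rose (0.70 ± 0.14 SE, adjusted p = 0.00232). Galnt3 was at 0.52, 0.19, 0.23 and 0.69 in untreated wild type rats and at 0.88, 1.03, 0.47 and 1.12 in DSS-treated wild type rats, and at 0.53, 0.79, 0.97 and 1.07 in untreated Pirc rats and 1.76, 1.78, 2.15 and 1.4 in DSS-treated Pirc rats. Its 4 highest values were those of the DSS-treated Pirc rats. Galnt5 (-0.52 ± 0.12 SE, adjusted p = 0.00611) and Galnt11 (-0.48 ± 0.10 SE, adjusted p = 0.0055) fell. Galnt9 passed as higher from dim values (well above background on 10 of 16 arrays), at 0.80 ± 0.21 (SE, adjusted p = 0.0161), and the call was lost under normexp, quantile normalization and a common floor (adjusted p = 0.192, 0.0724 and 0.346). Galnt1, Galnt2, Galnt4, Galnt6, Galnt7 and Galnt10, all well above background on every array, did not pass, with changes between -0.15 and 0.43. Galnt1, which had the highest of these, passed with slide as a block (adjusted p = 0.0281).

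Of the 3 branching enzymes, Gcnt3 alone passed with DSS over both genotypes, and a difference between branching and chain extension was not tested. Gcnt3 makes the core 2 and core 4 branches of mucins and is the mucin-type member of the family. Gcnt3 was at -0.21, -0.47, 0.27 and -0.37 in untreated wild type rats and at 2.26, 2.29, 0.86 and -0.03 in DSS-treated wild type rats, and at 1.37, 1.07, 0.60 and 1.41 in untreated Pirc rats and 2.66, 2.56, 2.8 and 2.33 in DSS-treated Pirc rats. Within each genotype most treated rats were higher, but among treated wild type rats 2 were high (2.26 and 2.29, first slide) and 2 were lower (0.86 and -0.03, second slide). Gcnt3 changed by 1.51 ± 0.29 (SE, adjusted p = 0.0023) over both genotypes, or 2.85-fold, and by 2.01 and 1.01 within the slides. Gcnt1 and Gcnt2 did not pass (-0.19 ± 0.23 and -0.29 ± 0.23). None of the 7 B3gnt genes and none of the 5 B3galt genes passed with DSS, in either genotype or over both. Of all probes, 14.7% passed in Pirc rats, 3.84% in wild type rats and 17.2% over both genotypes. B4galnt1, the GM2 ganglioside synthase, rose (0.67 ± 0.16 SE, adjusted p = 0.00914), and B4galnt4 did not pass (-0.13 ± 0.17).

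Of the 8 fucosyltransferases, Fut1 and Fut4 fell with DSS and none rose, compared with 6.99% of all probes that were lower and 10.2% that were higher. Fut1 and Fut2 make H antigens with alpha-1,2-linked fucose, and Fut4 and Fut7 make Lewis x structures with alpha-1,3-linked fucose. Fut4 changed by -0.64 ± 0.18 (SE, adjusted p = 0.0225), and a second probe of the gene gave -0.62 without passing (adjusted p = 0.0559). The call was lost without DSS-treated wild type rat 14 (adjusted p = 0.0504) or untreated wild type rat 21 (adjusted p = 0.0509). Fut1 changed by -0.43 ± 0.13 (SE, adjusted p = 0.0356), and leaving out any of 9 rats raised its adjusted p above 0.05, to as much as 0.0789. Fut2 (0.32 ± 0.11, adjusted p = 0.0659), Fut7, Fut8, Fut9, Fut10 and Fut11 did not pass.

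In Pirc rats alone, 20 of 67 members passed with DSS, 9 higher and 11 lower, compared with 14.7% of all probes, of which 8.14% were higher and 6.51% lower. In wild type rats alone 7 passed, 4 higher and 3 lower, compared with 3.84% of all probes, 2.94% higher and 0.899% lower. With a factor of 2 as well, 13 members passed in Pirc rats (7.46% of probes) and 6 in wild type rats (2.77% of probes). Of probes well above background on every array, 17% passed in Pirc and 3.64% in wild type rats, compared with 15 and 4 of the 50 such members. Without untreated Pirc rat 15 the number in Pirc rats was 13, and without treated wild type rat 14 or untreated wild type rat 25 the number in wild type rats was 4. Scaled to the array medians, 27 members passed in Pirc rats and 33.3% of them were higher, against 45% in the main scaling, and quantile normalization gave 34.6%. B4galt1, B4galt6 and St3gal4 were higher and Cmahp and St3gal6 lower in each genotype. St6galnac3 also passed as higher in each from its dim probe, but not at a common floor, and its second probe gave 0.10 in Pirc and -0.21 in wild type rats. B4galt1 changed by 4.97 ± 0.50 in Pirc and 4.02 ± 0.50 in wild type rats (3.15 and 1.65 with normexp), and Cmahp by -4.74 ± 0.53 and -3.77 ± 0.53. St3gal4 changed by 2.73 ± 0.39 and 1.66 ± 0.39, where the wild type call was lost without any of 6 rats (adjusted p up to 0.101) and with only the compared groups fitted (adjusted p = 0.0618). B4galt3 passed in wild type rats alone (-0.53 ± 0.13, adjusted p = 0.0374), and that call was lost without any of 8 rats (adjusted p up to 0.137). The change of Gcnt3 was 1.48 ± 0.41 in Pirc (adjusted p = 0.0268) and 1.54 ± 0.41 in wild type rats (adjusted p = 0.0516, or 0.04 with slide as a block). The Pirc call for Gcnt3 was lost without rat 12, 15, 19 or 20 (adjusted p up to 0.0818).

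The difference between the DSS effects in the 2 genotypes was tested directly. It passed for no member (limma, lowest adjusted p = 0.150 with 1 probe per gene), with 10 members at an unadjusted p under 0.05. Of all probes 0.0428% passed, or 0.0206% of those well above background on every array. A larger number of calls in Pirc rats is therefore not shown to be a difference between the genotypes for any named gene. The members furthest apart were St3gal2, with effects of -1.75 in Pirc and 0.34 in wild type rats, St3gal5, Galnt14 and Galnt16, the last from a probe well above background on 1 array. Galnt7, which extends glycopeptides that already carry GalNAc, had a DSS effect of -0.63 in Pirc rats (adjusted p = 0.0274) and 0.34 in wild type rats (adjusted p = 0.354), with a difference of -0.97 ± 0.25 (adjusted p = 0.203).

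In the comparison of Pirc with wild type rats over both treatments 15 of 67 members passed, 5 higher and 10 lower in Pirc rats, compared with 17.5% of all probes (9.26% higher and 8.27% lower), or 24.4% of those well above background on every array. Their share, 22.4%, is near that background. With a factor of 2 as well, 4 members and 2.0% of probes passed. B4galt1 (1.37 ± 0.35 SE, adjusted p = 0.0164), Gcnt3 (1.27 ± 0.29 SE, adjusted p = 0.00914), St3gal5 (0.95 ± 0.20 SE, adjusted p = 0.00585), Galnt3 (0.67 ± 0.14 SE, adjusted p = 0.00526) and Fut2 (0.55 ± 0.11 SE, adjusted p = 0.00546) were higher. Fut2 directs the H antigen on intestinal mucins. For B4galt1 the difference with normexp was 0.64. Gcnt2, which makes the I-antigen branch, had the largest difference among the lower members (-1.24 ± 0.23 SE, adjusted p = 0.00336).

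Gcnt2 was at 1.5, 1.53, 1.93 and 1.11 in untreated wild type rats and at 2.06, 1.9, 1.78 and 0.88 in DSS-treated wild type rats, and at 1.43, 0.87, -0.00035 and 0.55 in untreated Pirc rats and 0.12, 0.18, -0.65 and 0.29 in DSS-treated Pirc rats. The treated Pirc rats were below all wild type rats, and untreated Pirc rats overlapped with them. St3gal3 (-0.98, or -0.63 with normexp), Galnt14 (-1.03, or -0.43 with normexp), Galnt18 (-0.86) and B3gnt3 (-0.54), the core 1 extension enzyme, were lower, with adjusted p between 0.00116 and 0.00523. B3gnt3 was at 1.44, 1.27, 1.58 and 1.45 in untreated wild type rats and at 1.53, 1.47, 1.66 and 1.88 in DSS-treated wild type rats, and at 1.03, 0.87, 0.84 and 1.08 in untreated Pirc rats and 1.08, 1.29, 0.90 and 0.91 in DSS-treated Pirc rats. All Pirc rats but 1, a treated rat at 1.29, were below every wild type rat, and a second probe of B3gnt3 gave -0.36. B3gnt2 (-0.44), which makes polylactosamine, and B3gnt7 (-0.35), which acts on keratan sulfate, were also lower. Fut1 (-0.46), Galnt10 (-0.45) and B4galt7 (-0.29) passed by little, and their calls were lost without any of 7, 7 and 14 rats (adjusted p up to 0.0565, 0.0733 and 0.0942). The 4 sialic acid genes did not pass, with Cmahp at -0.93 ± 0.38 (adjusted p = 0.107). In the same arrays 2 of 11 goblet cell markers and 6 of 13 colonic epithelium markers were lower in Pirc rats, the latter with list means of 4.61 to 4.90 in wild type and 3.99 to 4.61 in Pirc rats, and their part in these differences was not tested.

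Among untreated rats no member and no probe passed (limma, 0.0% of probes, lowest adjusted p of a member 0.247), while 10 members and 3103 probes were at an unadjusted p under 0.05. Gcnt3 was at 0.60 to 1.41 in untreated Pirc rats and -0.47 to 0.27 in untreated wild type rats, a difference of 1.31 ± 0.41 that did not pass (adjusted p = 0.308). For B3gnt3 the difference was -0.48 ± 0.13, also without passing (adjusted p = 0.247). Among DSS-treated rats 19 members passed, 8 higher and 11 lower in Pirc rats, against 18.2% of all probes (9.47% higher and 8.76% lower) and 25% of those well above background on every array. With a factor of 2 as well, 9 members and 5.47% of probes passed, and without treated Pirc rat 20 the number of members past the threshold was 12. This comparison shares the treated Pirc rats with the effect of DSS in Pirc rats, so the values are not independent of each other.

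The largest differences after DSS were those of B4galt1 (1.84 ± 0.50 SE, adjusted p = 0.0204), St3gal5 (1.71 ± 0.28 SE, adjusted p = 0.00187) and St3gal4 (1.35 ± 0.39 SE, adjusted p = 0.027) among the higher members. St3gal2 (-1.93 ± 0.44 SE, adjusted p = 0.00914), Galnt14 (-1.78 ± 0.30 SE, adjusted p = 0.00204), Gcnt2 (-1.67 ± 0.32 SE, adjusted p = 0.0042), St3gal3 (-1.48 ± 0.24 SE, adjusted p = 0.00172) and Galnt18 (-1.39 ± 0.18 SE, adjusted p = 0.000432) were the 5 furthest apart among the lower members. With normexp the differences of Galnt14 and St3gal3 were -0.59 and -0.84. With only the compared groups fitted, the calls of B4galt1, St3gal4, St3gal2 and Gcnt3 were lost (adjusted p = 0.0521, 0.0559, 0.0542 and 0.16). The B4galt1 call was lost without treated rat 12, 20, 22 or 26 (adjusted p up to 0.063) and the St3gal4 call without treated rat 18, 20, 22 or 26 (adjusted p up to 0.082). Galnt3 was also higher (0.90 ± 0.19, adjusted p = 0.00652). Gcnt3 was at the threshold (1.24 ± 0.41, adjusted p = 0.0496), was lost without any of 14 rats (adjusted p up to 0.127), and differed by 0.33 on the first slide and 2.15 on the second. In the same arrays 7 of 13 colonic epithelium markers were lower and 6 of 14 squamous and urothelial markers were higher in the treated Pirc rats.

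**Figure D4:**
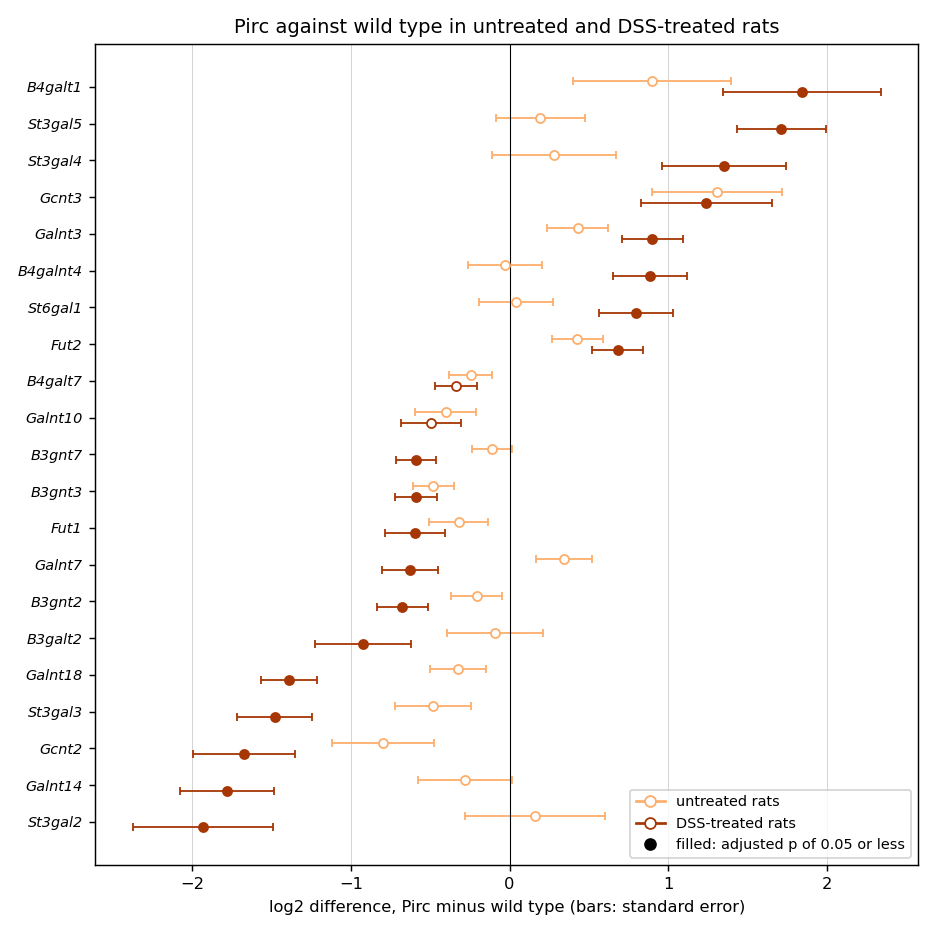
Log2 difference between Pirc and wild type rats (Pirc minus wild type, x axis) in untreated (light) and DSS-treated (dark) rats, with standard errors, for the 21 members that passed over both treatments or in treated rats. Filled points passed an adjusted p of 0.05. No light point is filled, and the dark points range from -1.93 for St3gal2 to 1.84 for B4galt1.

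Of 17 measured genes of sialic acid supply and turnover, DSS was associated over both genotypes with 1 higher and 3 lower. Of all probes, 17.2% passed in that comparison, 10.2% as higher and 6.99% as lower. Gfpt1, the first enzyme of the hexosamine pathway, rose (0.49), and Siae, which removes O-acetyl groups from sialic acid (-0.63), Nagk, which salvages N-acetylglucosamine (-0.39), and Uap1, which makes UDP-GlcNAc (-0.33), fell. Of 12 measured genes of sugar nucleotide supply 2 rose and none fell, 1 of them Galk1, which phosphorylates galactose (0.67). In Pirc rats over both treatments 5 of the 12 were higher and 1 was lower, compared with 9.26% and 8.27% of all probes. Galk1 was among the higher, at 0.81, along with Gmds, the first enzyme of GDP-fucose synthesis (0.56), Gfus (0.34) and the UDP-galactose transporter Slc35a2 (0.42), while Ugdh was lower (-0.45).

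Of 13 measured genes of core 1 synthesis and O-glycan modification, 3 rose and 3 fell with DSS over both genotypes, compared with 10.2% and 6.99% of all probes. C1galt1, which makes core 1, rose by 0.55, Chst1, a sulfotransferase, by 1.07, and B3galnt1, the globoside synthase, by 3.12 from a probe that was well above background on 8 arrays. Papss2, which makes the sulfate donor, and the sulfotransferases Chst4 and Chst5 fell, at -1.22, -0.63 and -1.05. Of 19 listed mucins and mucin-like proteins 4 were measured, only 1 of them well above background on all 16 arrays. Muc20 (2.27) and Podxl (1.83) rose, so not both sizes came from a probe well above background on every array. Of 20 measured lectins and glycan receptors 5 rose and none fell. Only 10 of the 20 were well above background on all 16 arrays, and 3 were on none, so sizes from dim probes in this list are uncertain. Those that rose included Lgals7 (7.74), a galectin of stratified epithelia, Lgals1 (2.33), Clec7a (2.24) and Clec10a (2.11), the last 2 receptors of myeloid cells. In Pirc against wild type rats over both treatments, Npl (1.21), B3galnt1 (1.43), B3galnt2 (0.44), Muc20 (1.5) and Podxl (0.97) were higher and Renbp (-0.61), Uap1 (-0.28), Lgals5 (-0.59) and Lgals9 (-0.63) lower among these 4 lists of supply, modification, mucin and lectin genes.

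Cmahp, B4galt1 and St3gal6, which separated treated from untreated rats, were also set beside the squamous and urothelial markers rat by rat. B4galt6, which separated them as well, was not set beside these markers. Among DSS-treated wild type rats the list mean was -3.41 in rat 14, -3.05 in rat 18, -1.38 in rat 22 and -5.29 in rat 26, so rat 26 was in the range of the untreated rats. The same rat's list means for leukocytes (-2.55), B and plasma cells (-4.85) and fibroblasts (-3.21) lay above those of all untreated rats. In rat 26 Cmahp was at -0.87, B4galt1 at -4.16 and St3gal6 at -5.29. In the 8 untreated rats the ranges were 1.07 to 2.19, -8.41 to -5.74 and -4.42 to -3.1. These 3 genes had been picked because no treated rat overlapped with an untreated one, so lying outside those ranges was fixed by the choice. Among members not picked that way, St3gal4 (0.63), Gcnt3 (-0.03) and St6galnac1 (1.48) of rat 26 lay within the untreated range. Rat 22, with the highest list mean of its group, had the highest Cmahp of the treated rats (-0.56), with B4galt1 at -4.17 and St3gal6 at -5.73. The part of any of these cell types in the changes was not tested.

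**Figure D5:**
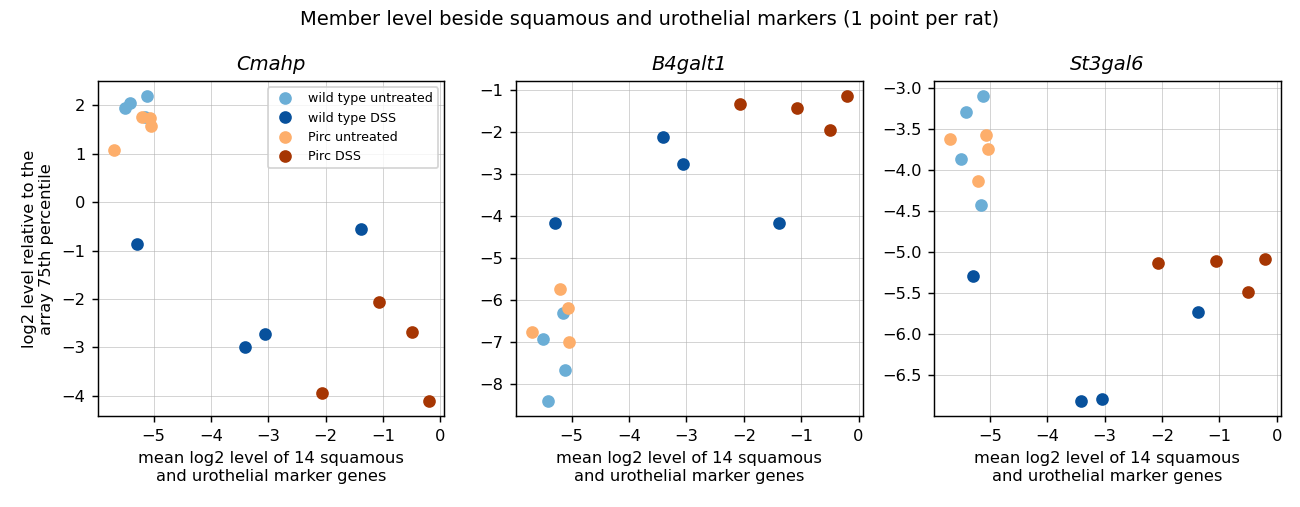
Level of Cmahp, B4galt1 and St3gal6 (y axis, log2 signal relative to the array's 75th percentile) beside the mean level of 14 squamous and urothelial markers (x axis, same units), 1 point per rat, colored by group. The treated wild type rat at -5.29 on the x axis lies among the untreated rats on that axis and outside their range for all 3 genes. The 3 genes were picked for having no overlap between treated and untreated rats, so their place outside that range is given by the choice.

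Probes of the same gene did not always give the same answer. Of the 11 members with several probes, opposite signs were found for 6 in the comparison of DSS over both genotypes and for 3 in that of Pirc over both treatments. The call differed between probes for 2 and 3 genes in those comparisons. The 3 probes of B3galt2, which adds galactose to N-acetylglucosamine, gave -0.92, -1.04 and -1.23 for Pirc against wild type after DSS. Both probes of St3gal2 were lower in treated Pirc rats (-1.75 and -1.61 with DSS). For the difference between the DSS effects its second probe, well above background on 13 arrays, gave -2.28 ± 0.48 (limma, adjusted p = 0.116). That adjusted p was lower than for any probe that stood for a member, and it did not pass either. For St6gal1, 1 probe gave 0.80 (adjusted p = 0.0284) and the other 0.01 for Pirc against wild type after DSS, so no direction is given for that gene.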

How the data were processed

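Transcript levels in normal distal colon were measured on single-color Agilent arrays in 16 rats, 4 per group. The deposited values are spot intensity values that the authors obtained with Agilent Feature Extraction 10.7.3.1 (array annotation build rn4), and the submitters' processing notes also name Partek. The processed signal, already background-subtracted, was taken to log2 and each array's 75th percentile was subtracted. Control spots (4259 of 62976) and outlier-flagged spots were left out, and spots of a probe were averaged. Of 30367 probes, 18006 were named through RefSeq accessions. A linear model with 4 group means (limma 3.58.1, R 4.3.3, lmFit and eBayes) was fitted to all 16 arrays, with Benjamini-Hochberg adjustment over all probes and a threshold of 0.05. A probe counted as well above background where at least 50% of its spots were. The fit was tested on simulated data. The members and gene lists were chosen with earlier results of these data known. Named were the sialic acid genes and, among members past the threshold, up to 15 per direction for DSS over both genotypes, 10 for Pirc against wild type in all rats and 5 in each other comparison. Galnt7, Galnt16, B3galt2, St6gal1 and members that did not pass were named after their values were seen. A few results for pathway genes are not reported here. Alternatives were normexp background correction (offset 50), median and quantile scaling, a common floor, exclusion of dim probes, a block for slide, a factor of 2 and leaving out each rat. The number of arrays limits the precision.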

Additional observations from a re-analysis of the deposited data

Results flagged for a closer look

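In 6 of the 128 groups of 4 rats examined for the named members, 1 rat stood apart from the other 3, and its gap to the nearest, as a share of the group's range, was above Dixon's critical value. Chance alone sets apart about 1 in 20 groups, or 6.4 of 128. Rat 16, a DSS-treated Pirc rat, was low for B3gnt2 at -1.22 (others -0.94 to -0.88) and high for B4galnt1 at -1.15 (others -1.79 to -1.70). Rat 24, also a DSS-treated Pirc rat, was low for St3gal6 at -5.48 (others -5.13 to -5.08). Among untreated Pirc rats, rat 23 was high for Fut2 at 0.19 (others -0.05 to -0.02) and rat 19 was high for Galnt14 at -4.48 (others -5.20 to -5.12). DSS-treated wild type rat 26 was high for Galnt10 at -2.54 (others -3.14 to -3.11).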

How the results depend on the processing

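Of 69 results for named members, 63 passed the threshold, all 63 kept their direction under every alternative run, and 43 also kept their call in every setting over both slides and with any rat left out. The number of members past the threshold for DSS over both genotypes was 8 with a factor of 2, 5 on slide 2 alone and 18 to 26 with a rat left out. For DSS in Pirc rats it was 13 with a factor of 2, 11 on slide 1, 2 on slide 2 and 13 to 22 with a rat left out. For DSS in wild type rats it was 0 on slide 2, 4 with only the compared groups fitted and 4 to 10 with a rat left out. For Pirc over both treatments it was 4 with a factor of 2, 0 on each slide alone and 12 to 22 with a rat left out, and for Pirc after DSS 9 with a factor of 2, 5 on slide 1, 0 on slide 2, 9 with only the compared groups fitted and 12 to 23 with a rat left out. A single slide holds fewer arrays. The difference of Cmas: Pirc against wild type, both treatments, which had not passed, was -0.02 and changed sign with quantile normalization (0.0046), on slide 2 alone (0.041) and without untreated wild type rat 13, treated wild type rat 14 or treated Pirc rat 20. With a rat left out it ranged from -0.087 to 0.014. Normexp, on the median signal, was chosen after seeing the data. The planned version on the mean signal was not run because the scanner output held no mean spot signal. Slide as a block ended 1 call, B4galt7 for Pirc over both treatments (adjusted p = 0.0517), and added 7: Galnt1 for DSS over both genotypes (0.0281), Galnt11 in Pirc rats (0.0372), Galnt11 and Gcnt3 in wild type rats (0.0464 and 0.0400), B4galt2 for Pirc over both treatments (0.0301), and B3gnt4 and B3gnt5 for Pirc after DSS (0.0477 and 0.0478). Dim probes limit the sizes given for B4galt1, St3gal6, Galnt14, Galnt9 and St6galnac3. No paired analysis was possible because the labels give every rat a number of its own, so that no number is shared between groups. Arrays could be matched by position, since each slide and array row held 1 rat of every group, and with both as blocks 25 members passed for DSS over both genotypes, 23 in Pirc and 10 in wild type rats, 16 when all Pirc rats were compared with all wild type rats, and 19 among treated rats.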
